A study of Mus musculus with 15 samples.

Results

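The subunits of the respiratory chain and of ATP synthase were followed in foam cells, macrophages that have filled with lipid in the wall of an atherosclerotic vessel, on 15 arrays from ApoE-/- mice of the C57BL/6 strain. The members were the genes whose symbol on the array annotation begins as Ndufa, Ndufb, Ndufc, Ndufs or Ndufv with a number, or as Uqcr, Cox4 to Cox8, or Atp5. Only probe sets with exactly 1 gene were used, which gave 76 members of 18193 named genes. Complex I had 33 members, complex III had 8, complex IV had 18 and ATP synthase had 17.

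All mice lacked apolipoprotein E, a carrier protein that clears cholesterol-rich lipoproteins, so no group had a functional Apoe gene. The CHOW group (5 arrays) received regular chow up to week 22. The 14w-WD group (5 arrays) received a western-type diet for 14 weeks, from week 8 to week 22, after 8 weeks of chow. The 2w-WD group (5 arrays) received the western-type diet for 2 weeks. By its sample labels that group had first eaten chow for 20 weeks, whereas the series text places its diet between weeks 22 and 24, so the age at the end is not settled. Cells were cut from sections of the aortic sinus by laser-capture microdissection, which takes whatever lies in the cut area, and their RNA was amplified before hybridisation. Nothing in the labels says which arrays come from separate animals. The p-values therefore measure only the scatter of these arrays, and part of that scatter may be technical.

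The respiratory chain moves electrons through complexes I, III and IV of the inner mitochondrial membrane and pumps protons, and ATP synthase makes ATP from the proton gradient. Most subunits are encoded in the nucleus, and several subunits of cytochrome c oxidase, complex IV, exist as pairs of isoforms from separate genes. In mice Cox6a2, Cox7a1 and Cox8b are the isoforms of heart and skeletal muscle, and Cox8b is also known from brown fat, while Cox6a1, Cox7a2 and Cox8a are made in most tissues. In macrophages oxidative phosphorylation is known for supporting the alternatively activated state.

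Promoters of the isoform pairs are shown as a description. The muscle and common isoforms of a pair, as described further on, varied very differently between arrays. Whether their promoters bear on that variation was not tested. The RefSeq promoter table of build GRCm38.p6 held 1 window for 63 of the 76 members, from 250 bases before to 50 bases after the gene start. Each window is printed 5′ to 3′ on the strand of its gene, and capitals mark matches on either strand to the motifs searched.
Cox8b (chr7:140900397-140900696, minus strand): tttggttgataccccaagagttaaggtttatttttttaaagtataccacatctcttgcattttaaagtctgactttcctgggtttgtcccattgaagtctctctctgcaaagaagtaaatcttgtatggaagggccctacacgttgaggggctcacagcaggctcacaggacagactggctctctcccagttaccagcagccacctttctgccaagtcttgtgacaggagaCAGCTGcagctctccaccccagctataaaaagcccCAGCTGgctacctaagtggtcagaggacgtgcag
Cox8a (chr19:7217567-7217866, minus strand): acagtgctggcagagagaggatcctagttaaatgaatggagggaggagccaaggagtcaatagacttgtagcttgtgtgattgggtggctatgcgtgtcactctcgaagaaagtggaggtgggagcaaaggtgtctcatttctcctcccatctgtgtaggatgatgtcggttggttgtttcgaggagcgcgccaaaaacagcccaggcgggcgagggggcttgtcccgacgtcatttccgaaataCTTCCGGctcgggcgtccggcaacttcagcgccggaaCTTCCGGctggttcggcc
Cox7a1 (chr7:30183921-30184220, plus strand): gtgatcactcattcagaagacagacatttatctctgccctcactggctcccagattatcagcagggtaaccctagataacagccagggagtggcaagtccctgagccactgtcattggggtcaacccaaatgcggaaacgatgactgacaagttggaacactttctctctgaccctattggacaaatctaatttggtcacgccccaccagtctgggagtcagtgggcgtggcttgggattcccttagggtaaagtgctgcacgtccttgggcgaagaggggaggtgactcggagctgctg
Cox6a1 (chr5:115348909-115349208, minus strand): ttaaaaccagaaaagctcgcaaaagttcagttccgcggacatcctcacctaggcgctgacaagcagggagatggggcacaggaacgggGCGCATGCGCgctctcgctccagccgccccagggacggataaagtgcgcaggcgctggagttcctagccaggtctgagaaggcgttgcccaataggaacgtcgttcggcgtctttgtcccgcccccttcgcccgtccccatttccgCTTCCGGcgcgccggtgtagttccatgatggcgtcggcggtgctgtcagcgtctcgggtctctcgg
Cox8b holds the E box core CAGCTG at bases 232 to 237 and again at bases 267 to 272. Cox8a holds the ETS core CCGGAAG on the minus strand at bases 246 to 252 and at bases 283 to 289. Cox6a1 holds the same ETS core on the minus strand at bases 235 to 241, and the NRF1 core GCATGCGC on both strands in overlapping matches between bases 89 and 98. No searched motif matched in the windows of Cox7a1 and Cox7a2, and the window of Cox6a2 was not analysed here.

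Over all members with a window, the ETS core was present in 22.2% (14 of 63), against 9.12% of all 27025 promoters in the table. ETS factors such as GABP, and NRF1, are known activators of nuclear genes for respiratory chain subunits. The NRF1 core was present in 12.7% of the members' windows (8 of 63) and in 2.80% of all windows. The YY1 core AAGATGGC was present in 12.7% of members and 2.88% of all windows, and the ERR core AAGGTCA, bound by estrogen-related receptors, in 11.1% and 4.66%. The E box core was present in 9.52% of members and 16.1% of all windows, and the MEF2 motif, known from muscle genes, in none of the 63 and in 3.26% of all windows. The members' windows were richer in G and C, with a median of 57.3% against 52.7% for all windows. These shares are descriptions of letters in short windows and were not tested.

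Levels are given as log2(intensity + 16), and each gene is represented by its probe set of highest mean. The brightness of a probe set depends on its sequence, so a level is compared between arrays for the same gene and never ranks genes by abundance. A gene entered the test when its mean was at or above log2 5.66, an intensity of 34.6, the median of all probe sets. Of the 76 members, 73 entered. Ndufb1 of complex I (mean 5.18), Atp5l of ATP synthase (mean 5.45) and Cox6b2, the testis isoform of complex IV (mean 4.48), did not. The brightest and dimmest probe sets were Ndufa13 (13.80) and Ndufb1 in complex I, Uqcrb (13.98) and Uqcrfs1 (6.51) in complex III, Cox5b (13.82) and Cox6b2 in complex IV, and Atp5d (13.65) and Atp5l in ATP synthase. Of the 76 members, 31 had 1 probe set, while 12 were represented by a probe set of the _s_at type and 11 by the _x_at type, which can take signal from similar transcripts.

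The macrophage marker mean was high on every array: 9 of 10 markers lay above the filter, and the mean of the list ran from 11.16 to 12.17. Csf1r read 13.80 to 14.49, Fcgr1 8.93 to 11.05, C1qa 7.34 to 10.89 and Itgam, the marker below the filter, 4.24 to 5.81. Heart muscle markers were present as well: all 16 lay above the filter in their mean over the arrays. On single arrays some fell below it, as Ryr2 (4.21), Actc1 (4.45), Myh7 (4.98) and Actn2 (5.24) did on CHOW replicate 4. Myh6 read 9.98 to 14.69 and Actc1 4.45 to 9.99. The mean of the 16 markers ran from 6.81 to 10.92 on CHOW arrays, from 9.73 to 12.34 on 2w-WD arrays and from 9.14 to 11.47 on 14w-WD arrays. CHOW replicate 4 stood lowest at 6.81, and 2w-WD replicate 1 highest at 12.34. Of 10 skeletal muscle markers 2 lay above the filter, and their mean stayed between 4.97 and 5.36. Smooth muscle markers (5 of 7 above the filter) had means between 6.32 and 7.84, and adipocyte markers (4 of 4 measured) between 7.73 and 10.58. The genes of these lists were unlike in level. Acta2 read 12.33 to 13.80, and no other smooth muscle marker exceeded 9.25 (Tagln). Of the adipocyte markers Lpl read 13.36 to 14.34, Retn 5.79 to 12.74, Adipoq 4.33 to 9.93 and Lep 4.26 to 6.46. Brown fat markers (2 of 4 measured above the filter) had means between 5.02 and 7.34, highest on CHOW replicate 1. Among them Ucp1, below the filter on average, read 4.09 to 10.06, and no other exceeded 7.88 (Dio2). Its highest values were 10.06 on CHOW replicate 1, 7.64 on 14w-WD replicate 1 and 7.49 on 2w-WD replicate 1. In tissue cut this way, fewer cells of a type and less RNA per cell cannot be told apart.

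The muscle isoforms of complex IV varied far more between arrays than the common isoforms. The mean of Cox6a2, Cox7a1 and Cox8b ranged over 5.73 log2 units, from 7.56 on CHOW replicate 4 to 13.29 on 2w-WD replicate 2. The mean of the partners Cox6a1, Cox7a2 and Cox8a ranged over 0.56. The 2 lowest muscle isoform means after CHOW replicate 4 were on 14w-WD arrays, 10.51 on replicate 3 and 10.65 on replicate 1.

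Cox7a1, the muscle form of subunit 7a, read 10.67, 10.34, 10.20, 6.27 and 12.29 on CHOW replicates 1 to 5. It read 12.50, 12.82, 11.39, 12.35 and 10.86 on 2w-WD replicates 1 to 5, and 9.39, 11.95, 9.15, 11.04 and 10.62 on 14w-WD replicates 1 to 5. The 2w-WD arrays were high, and all 3 groups overlapped. Cox7a2, the common form, read 12.91, 13.21, 13.20, 12.93 and 13.66 on CHOW, 13.88, 13.71, 13.33, 13.36 and 13.19 on 2w-WD, and 13.20, 13.51, 13.28, 13.53 and 13.32 on 14w-WD arrays. All 15 of its values lay within 0.97 log2 units.

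Cox8b, the muscle form of subunit 8, read 12.20, 11.83, 10.80, 7.49 and 13.01 on CHOW replicates 1 to 5. On 2w-WD replicates it read 13.29, 13.57, 11.77, 12.95 and 11.78, and on 14w-WD replicates 10.71, 12.87, 10.49, 12.07 and 11.66. The same CHOW array was lowest as for Cox7a1, and the same 2w-WD array highest. Cox8a, its common partner, read 12.37, 12.24, 12.26, 12.22 and 11.76 on CHOW, 12.38, 11.59, 12.21, 11.98 and 11.86 on 2w-WD, and 12.25, 12.13, 12.32, 12.26 and 12.15 on 14w-WD arrays. Its values stayed within 0.78 log2 units, and CHOW replicate 4 lay inside the range of the other arrays.

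Cox6a2, the muscle form of subunit 6a, read 12.89, 12.77, 12.02, 8.92 and 13.18 on CHOW replicates 1 to 5. It read 13.47, 13.49, 12.60, 13.02 and 12.64 on 2w-WD and 11.84, 13.13, 11.89, 12.83 and 12.56 on 14w-WD replicates. Its second probe set gave group means in the same order, 11.56, 12.85 and 11.95 for CHOW, 2w-WD and 14w-WD, against 11.96, 13.04 and 12.45 for the first. Cox6a1, the common form, read 12.96, 13.72, 13.57, 13.43 and 13.31 on CHOW, 13.67, 13.48, 13.38, 13.50 and 13.29 on 2w-WD, and 13.57, 13.44, 13.66, 13.44 and 13.39 on 14w-WD arrays. CHOW replicate 4, lowest for Cox6a2, lay inside the range of its other values.

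**Figure D1:**
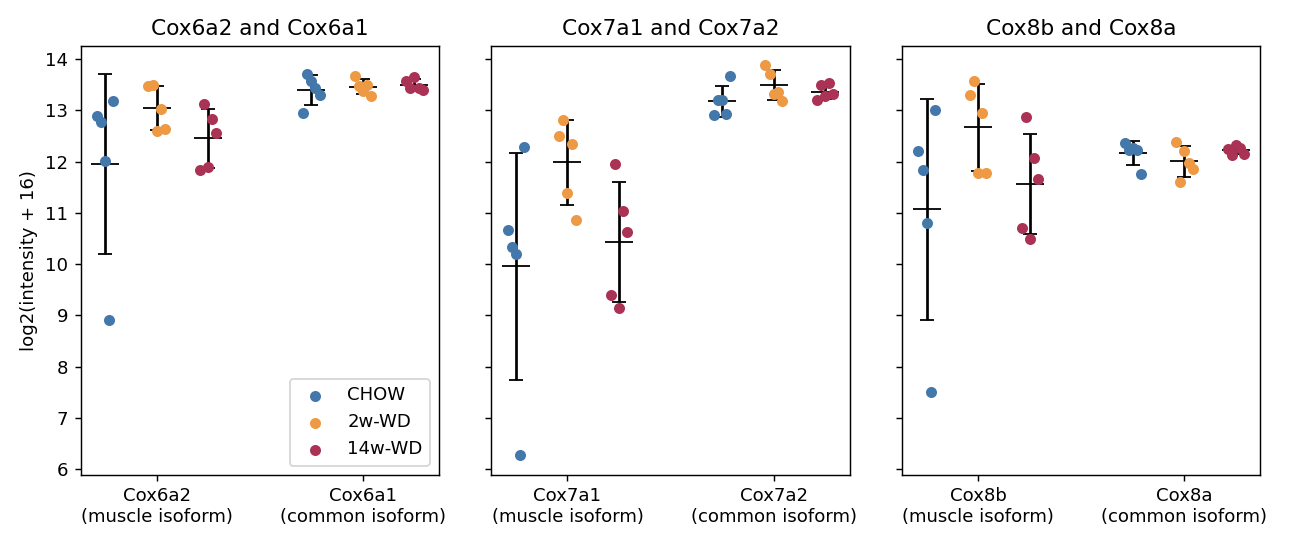
Levels, as log2(intensity + 16), of the 3 muscle isoforms of complex IV and their common partners on 5 arrays in each of 3 groups; points are arrays, the horizontal mark is the group mean and the bar 1 SD. The muscle isoforms spread widely, with CHOW replicate 4 lowest (8.92, 6.27 and 7.49 for Cox6a2, Cox7a1 and Cox8b), while each common isoform stayed within 0.97 log2 units.

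Whether the diets changed the muscle isoforms unequally to their partners was asked with the difference of the pair on each array, in an exact permutation test of 5 against 5 arrays (two-sided, smallest possible p 0.00794). None of 9 tests passed after adjustment over the 9. Even at the smallest possible p, a single test could not pass that adjustment by itself. The smallest p was that of Cox7a1 minus Cox7a2 between 14w-WD and 2w-WD. There the difference averaged -2.94 ± 1.05 (SD, n = 5) in 14w-WD and -1.51 ± 0.61 (SD, n = 5) in 2w-WD, a shift of -1.43 (exact p = 0.0397, adjusted p = 0.190). For Cox8b minus Cox8a the shift between these groups was -1.33 (exact p = 0.0635, adjusted p = 0.190), and for Cox6a2 minus Cox6a1 it was -0.63 (exact p = 0.103, adjusted p = 0.232). Against CHOW the shifts were larger for 2w-WD (1.02, 1.72 and 1.77 for the pairs of subunits 6a, 7a and 8) than for 14w-WD (0.39, 0.29 and 0.44), beside SDs of 1.82, 2.02 and 2.24 among the CHOW arrays. Without CHOW replicate 4 the 3 shifts of 14w-WD against CHOW turned to -0.37, -0.57 and -0.47, and those of 2w-WD against CHOW were 0.25, 0.86 and 0.86.

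The muscle isoforms ran with the heart muscle markers. In limma across 11925 genes, with group and the mean of the 16 markers as terms, Cox8b rose by 1.04 (SE 0.13) log2 units per log2 unit of the marker mean (adjusted p = 0.000775). Cox7a1 rose by 1.05 (SE 0.16, adjusted p = 0.00251) and Cox6a2 by 0.77 (SE 0.10, adjusted p = 0.00122). The partners had slopes of -0.02 (SE 0.05) for Cox6a1, -0.01 (SE 0.06) for Cox8a and 0.13 (SE 0.04) for Cox7a2, none past the threshold. These markers are themselves the measurement of heart muscle RNA on the same arrays, and no muscle isoform is among them. Whether cut heart tissue is the source of the muscle isoforms was not tested.

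The slope of each pair's own difference was tested by permuting arrays within groups, over all 1728000 orders (exact, two-sided), a test chosen after the data had been seen. It was 0.79 for Cox6a2 minus Cox6a1 (exact p = 2.60e-05, adjusted over 3 pairs 7.81e-05), 0.92 for Cox7a1 minus Cox7a2 (exact p = 0.000599, adjusted 0.000599) and 1.06 for Cox8b minus Cox8a (exact p = 0.000464, adjusted 0.000599). Without the 2 arrays farthest from the median marker mean, CHOW replicate 4 and 2w-WD replicate 1, the slopes were 0.64, 0.85 and 1.10, and all 3 exact p-values stayed below 0.05 after adjustment (0.000217, 0.00168 and 0.00150). Without CHOW replicate 4 alone the slopes were 0.48, 0.60 and 0.80 (adjusted exact p = 0.000399, 0.00704 and 0.00704), and the slope of Cox6a2 itself was 0.45 (adjusted p = 0.0129).

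**Figure D2:**
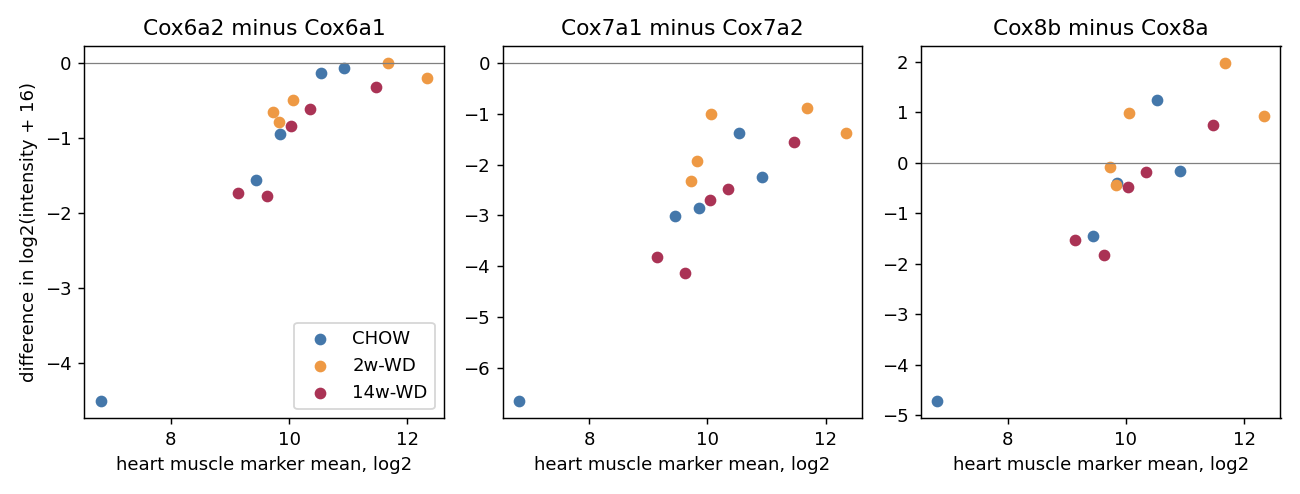
Difference in log2(intensity + 16) between the muscle and the common isoform of each pair (vertical axis) against the mean log2 level of 16 heart muscle markers (horizontal axis); each point is 1 of 15 arrays, coloured by group. The differences climb with the marker mean by 0.79, 0.92 and 1.06 per log2 unit, and CHOW replicate 4 lies lowest in all 3 panels.

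Ventricular and atrial markers were high together on some arrays and apart on others. The mean of Myl2, Myl3 and Myh7, taken here as the ventricular markers, ran from 6.59 to 13.28. The mean of Myl4, Myl7 and Nppa, taken as the atrial markers, ran from 7.73 to 13.98. On 2w-WD replicate 1 both were high, 13.98 for the atrial and 12.58 for the ventricular mean, and the muscle isoform mean was 13.09. On 14w-WD replicate 2 both were high as well, 12.72 and 12.34, and the muscle isoform mean was 12.65. On CHOW replicate 5 the atrial mean was 7.91 and the ventricular mean 13.04, and the muscle isoform mean was 12.83. On 2w-WD replicate 4 the atrial mean was 13.51 and the ventricular mean 7.48, and the muscle isoform mean was 12.78. On CHOW replicate 4 both were low, 7.73 and 6.59, and so was the muscle isoform mean at 7.56. On 14w-WD replicate 1 the atrial mean was 12.07 and the ventricular mean 7.38, and the muscle isoform mean was 10.65. The lowest muscle isoform mean was on the array where both marker means were low. As the covariate alone, the ventricular mean gave slopes of the pair differences of 0.29, 0.36 and 0.44 (exact test, adjusted p = 0.00313 for each pair). The atrial mean gave 0.28, 0.24 and 0.18 (adjusted p = 0.728 for each). In limma across all genes tested, the muscle isoforms themselves did not pass on the ventricular mean. Their slopes were 0.28 for Cox6a2 (adjusted p = 0.195), 0.44 for Cox7a1 (adjusted p = 0.0923) and 0.42 for Cox8b (adjusted p = 0.0798). The subsets were chosen after the data had been seen, and the difference between their slopes was not tested.

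Beyond the muscle isoforms, 6 further members had a slope on the heart muscle mean past the threshold, all positive. The background was 0.881% of all genes with a positive slope and 0.0168% with a negative one, and the members had 9 positive (of 73) and 0 negative calls. At an unadjusted p under 0.05 there were 42 positive and 0 negative members, where 5.61% of all genes were positive and 2.16% negative. The median slope of the 73 members was 0.17 and that of all genes 0.01.

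In complex I, Ndufb9, an accessory subunit, had a slope of 0.27 (SE 0.04, adjusted p = 0.00323). It read 12.75 on CHOW replicate 4 and 14.02 on 2w-WD replicate 1, its lowest and highest arrays. Ndufa8, another accessory subunit, had a slope of 0.22 (SE 0.04, adjusted p = 0.0102), and Ndufv3, of the NADH-oxidising module, 0.18 (SE 0.04, adjusted p = 0.0202). In complex III the small subunits Uqcr11 (0.24, SE 0.05, adjusted p = 0.0175) and Uqcrq (0.39, SE 0.08, adjusted p = 0.0314) passed. In complex IV, Cox5b, which has no muscle partner gene, passed with 0.16 (SE 0.04, adjusted p = 0.0411). In ATP synthase none of 16 passed; the catalytic beta subunit Atp5b had 0.62 (SE 0.18, adjusted p = 0.193) and the alpha subunit Atp5a1 0.22 (SE 0.06, adjusted p = 0.174).

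The slopes by complex were of unlike size. The median was 0.18 for complex I, 0.28 for complex III and 0.18 for ATP synthase. It was 0.03 for the 11 members counted in complex IV that are not tissue isoforms. Among these are Cox7a2l, placed there by its symbol alone, and Ndufa4, which belongs to complex IV despite its name. The lowest slopes were those of Cox7b2 (-0.12), Cox7c (-0.11), Cox8c (-0.09), Ndufb4 (-0.08), Uqcrb (-0.04) and Cox6a1 (-0.02), none past the threshold. Cox6a2, Cox8b and Ndufb9 passed in all 15 fits that left out 1 array. Cox7a1 and Ndufa8 passed in 14 of them, and without CHOW replicate 4 their adjusted p-values were 0.0731 and 0.0803. Uqcr11 passed in 13 and Ndufv3 in 12, and neither passed without 2w-WD replicate 1 (adjusted p = 0.0932 and 0.0852) or without 14w-WD replicate 2. Ndufv3 also missed the threshold without CHOW replicate 4. Uqcrq passed in 9, with an adjusted p of up to 0.150 without CHOW replicate 4. It also missed the threshold without 14w-WD replicate 2 and without 2w-WD replicates 1, 2, 3 or 5. Cox5b passed in only 3, those without CHOW replicate 1, CHOW replicate 4 or 2w-WD replicate 4, and its adjusted p reached 0.237 without 2w-WD replicate 1. With the mean of all its probe sets Ndufb9 had 0.16 (adjusted p = 0.395), and with a replicate block 0.24 (adjusted p = 0.0959). The count of members with a called positive slope was 5 without 2w-WD replicate 1 (0.478% of all genes), 5 without 14w-WD replicate 2 (0.621%) and 21 without CHOW replicate 1 (1.03%). Without the 2 farthest arrays it was 3 (0.285% of all genes), Cox6a2, Cox8b and Ndufb9, and Cox7a1 had 0.99 (adjusted p = 0.102).

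**Figure D3:**
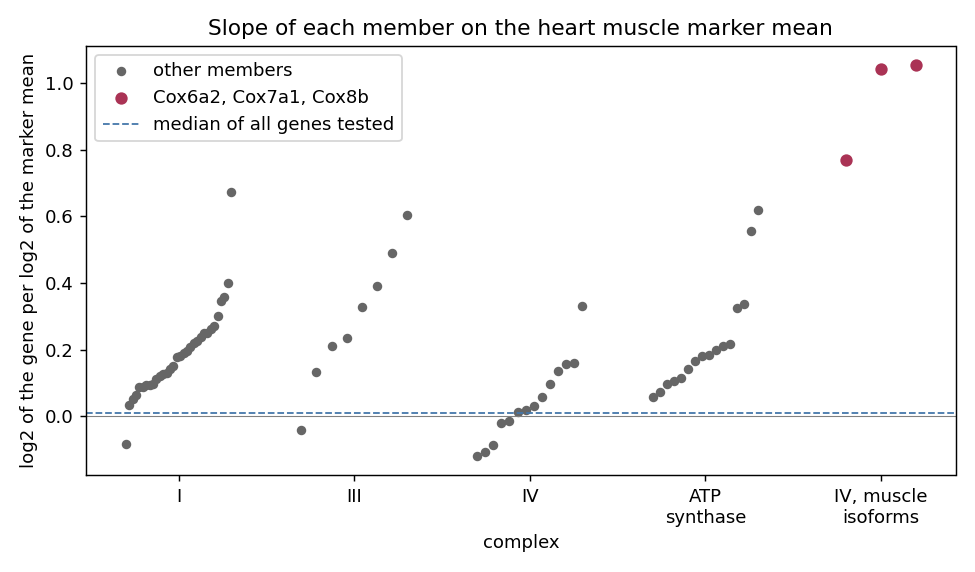
Slope of each of the 73 members on the heart muscle marker mean, in log2 units of the gene per log2 unit of the mean, by complex; the dashed line is the median of all 11925 genes (0.01). The 3 muscle isoforms lie between 0.77 and 1.05, above every other member.

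No member passed the test in any comparison of the diets. In 2w-WD against CHOW the members had 0 higher and 0 lower calls at an adjusted p under 0.05 (limma), where 0% of all genes were called in either direction, and 6 higher and 0 lower at an unadjusted p under 0.05, where 2.47% and 7.3% of all genes were. In 14w-WD against CHOW they had 0 and 0 calls, where 0.00839% of all genes were called higher and 0% lower, and 4 and 0 at an unadjusted p under 0.05, where 11.2% and 4.65% of all genes were. In 14w-WD against 2w-WD they had 0 and 0 calls, where 10.1% of all genes were called higher and 1.15% lower, and 6 higher and 2 lower at an unadjusted p under 0.05, where 25.9% and 6.13% of all genes were. The comparisons share arrays with each other. The medians of the members were 0.12, 0.13 and -0.08, and those of all genes -0.10, 0.16 and 0.23.

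**Figure D4:**
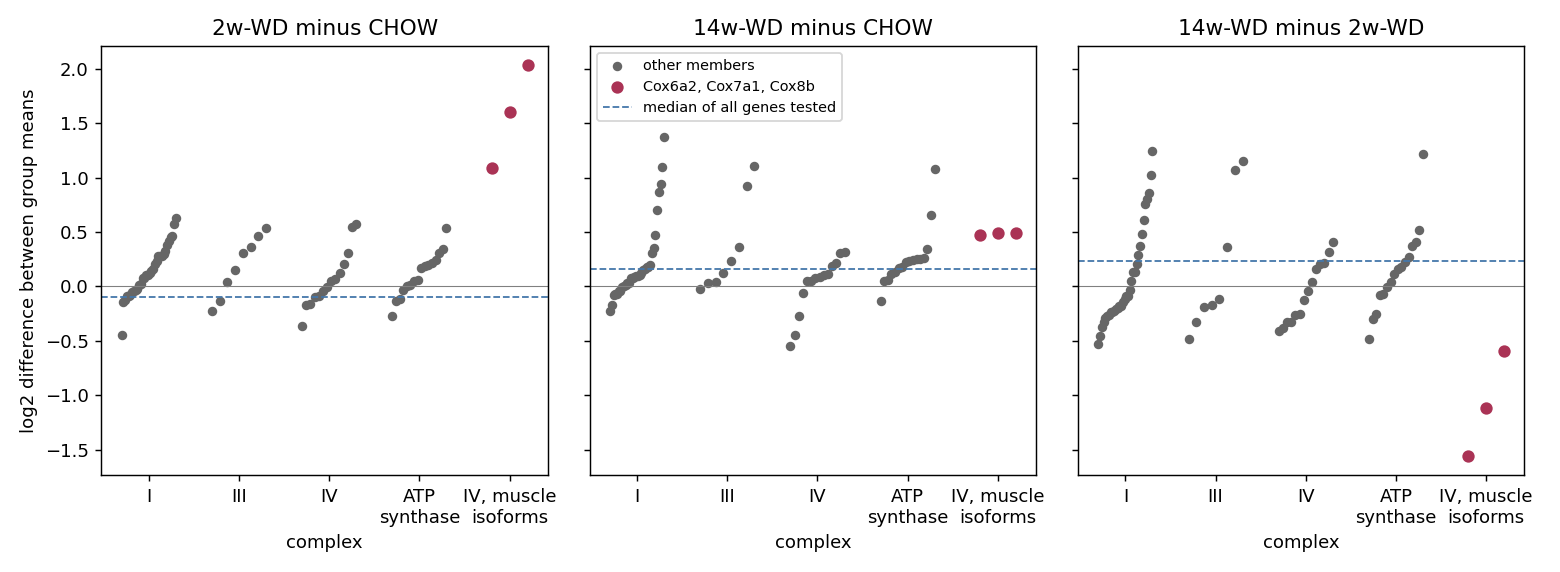
Difference between group means, in log2 units, of each of the 73 members by complex in the 3 comparisons; the dashed line is the median of all 11925 genes. No point passed the test; the muscle isoforms lie at 1.09 to 2.03 in 2w-WD minus CHOW and at -1.56 to -0.59 in 14w-WD minus 2w-WD.

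With 2 weeks of western diet the member of smallest p was Cox7a1, at 2.03 (SE 0.83, adjusted p = 0.507) above CHOW. Ndufs8, an iron-sulfur subunit of complex I, was at 0.46 (SE 0.20, adjusted p = 0.507), and Ndufc1, an accessory subunit of the membrane arm, at 0.33 (SE 0.14, adjusted p = 0.507). Cox5a, a common subunit of complex IV, was at 0.55 (SE 0.24, adjusted p = 0.509). The heart muscle mean averaged 9.51 ± 1.62 (SD, n = 5) in CHOW and 10.73 ± 1.20 (SD, n = 5) in 2w-WD. With that mean as a covariate the differences were 0.75 for Cox7a1 (adjusted p = 0.605), 0.31 for Ndufs8 (adjusted p = 0.605), 0.15 for Ndufc1 (adjusted p = 0.661) and 0.53 for Cox5a (adjusted p = 0.565). Ndufc1 had a slope of 0.15 on the heart muscle mean (SE 0.04, adjusted p = 0.0705), which passed with quantile normalization, with array weights, with the ventricular mean and without CHOW replicate 1. The macrophage marker mean lay between 11.46 and 12.17 on CHOW and between 11.16 and 11.89 on 2w-WD arrays, and its part in these differences was not tested. Without CHOW replicate 4 the difference of Cox7a1 was 1.11. On the lower side the smallest p was that of Cox4i2, the lung and hypoxia isoform of subunit 4, at -0.36 (SE 0.21, adjusted p = 0.570), while its common partner Cox4i1 was at 12.74 ± 0.25 in CHOW and 12.64 ± 0.47 in 2w-WD (SD, n = 5 each).

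With 14 weeks of diet the smallest p against CHOW was that of Ndufs5, an accessory subunit of complex I. It read 6.54, 6.19, 5.62, 5.99 and 5.51 on CHOW replicates 1 to 5, 7.34, 5.69, 5.20, 5.80 and 5.42 on 2w-WD replicates and 6.96, 7.10, 7.24, 6.56 and 6.70 on 14w-WD replicates. All 5 arrays of 14w-WD lay above all 5 of CHOW, with the nearest values at 6.56 and 6.54, and 3.09% of all genes tested did the same. The difference was 0.94 (SE 0.33, adjusted p = 0.206). Ndufa6 of complex I (1.10, SE 0.46, adjusted p = 0.264), Uqcrfs1, the Rieske iron-sulfur protein of complex III (1.11, SE 0.49, adjusted p = 0.283), and Ndufs4 of complex I (0.87, SE 0.40, adjusted p = 0.309) followed. On the lower side Cox8c, known from testis, was at -0.55 (SE 0.31, adjusted p = 0.398), Cox7c at -0.45, Cox7b2 at -0.27 and Ndufb4 at -0.23.

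Between the diets the smallest p was again that of Ndufs5, higher by 1.02 (SE 0.33, adjusted p = 0.0535) in 14w-WD than in 2w-WD. Ndufa6 (1.24, SE 0.46, adjusted p = 0.0811), Ndufa1 (0.48, SE 0.19, adjusted p = 0.0961) and Uqcrh, the hinge protein of complex III (1.16, SE 0.46, adjusted p = 0.0980) followed. On the lower side Ndufs8 was at -0.53 (SE 0.20, adjusted p = 0.0798), Atp5d, the delta subunit of ATP synthase, at -0.30 (SE 0.14, adjusted p = 0.138), Ndufv1 at -0.45 (SE 0.23, adjusted p = 0.178) and Cox7a1 at -1.56 (SE 0.83, adjusted p = 0.199). The 2 brightest of 6 probe sets of Ndufs8 were lower in 14w-WD and the other 4 higher, and its mean over all 6 was at 0.20. Without 2w-WD replicate 1, which stood apart from its group for Ndufs5 (7.34), 9 members were called higher, among them Ndufs5, Ndufa6, Uqcrh, Uqcrfs1 and Atp5b, where 24.8% of all genes were called higher and 4.89% lower. With the marker mean of heart muscle as a covariate 4 members were called higher (Ndufa6, Ndufs5, Uqcrfs1 and Uqcrh), where 10.6% of all genes were called higher and 1.46% lower.

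Of the members that led in 14w-WD, Ndufs5 (mean 6.26), Uqcrfs1 (6.51), Ndufa6 (6.71), Ndufs4 (7.72) and Uqcrh (7.96) were dim, and Ndufa1 (13.07) was bright. Their values are set here beside a property of the array as a whole. Probe sets brighter than an intensity of 100 made up 22.5% to 27.2% of the array on 14w-WD arrays, 20.4% to 24.7% on CHOW arrays and 18.2% to 25.7% on 2w-WD arrays. CHOW replicate 1 (24.7%) and 2w-WD replicate 1 (25.7%) were highest in their groups. On these same arrays Uqcrh read 8.99 and 9.37, against 7.18 to 7.55 on the other CHOW and 6.66 to 7.42 on the other 2w-WD arrays. With that share as a covariate the difference between 14w-WD and 2w-WD was 0.17 for Ndufs5 (adjusted p = 0.907), 0.11 for Ndufa6 (adjusted p = 0.962), 0.05 for Uqcrh (adjusted p = 0.986) and 0.28 for Ndufa1 (adjusted p = 0.800), and no gene of the 11925 was called in either direction. Atp5b, chosen after its values were seen, went from 1.22 to -0.34. The covariate differs between the groups, so diet and this property cannot be told apart here.

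**Figure D5:**
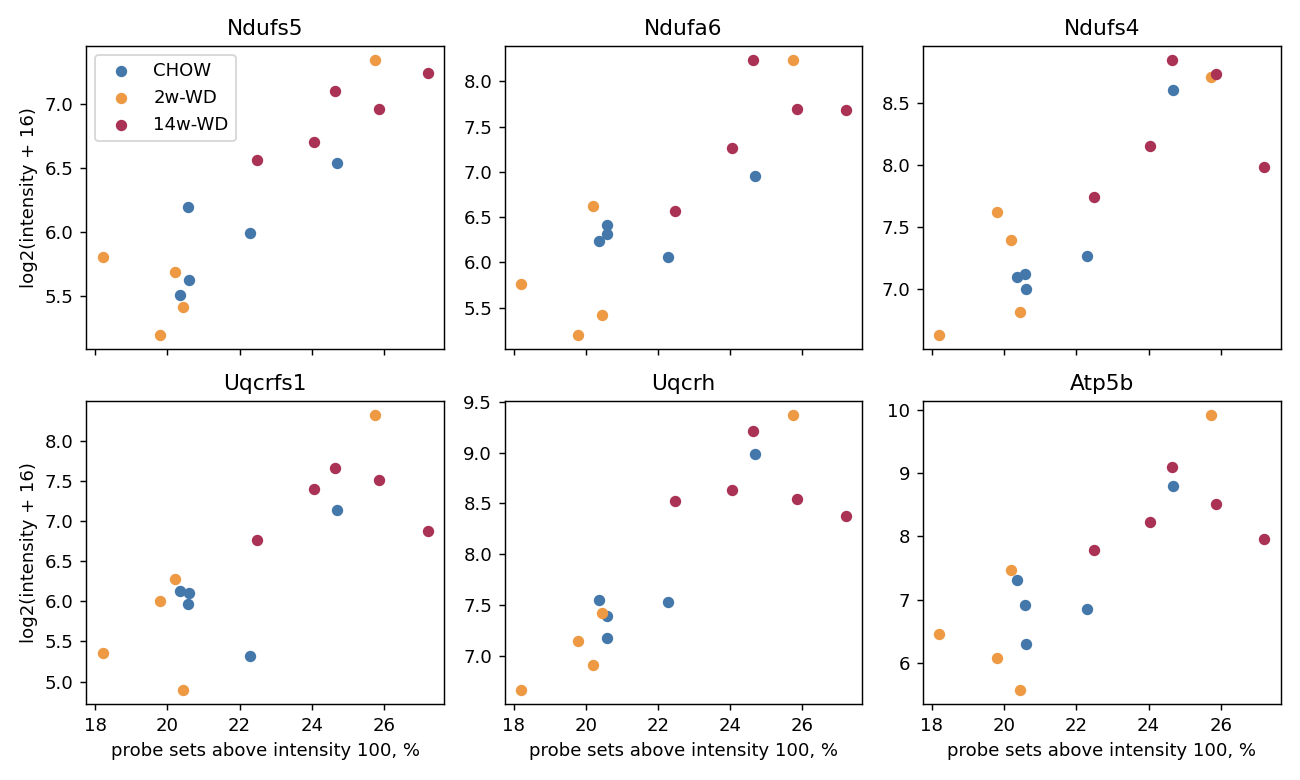
Levels, as log2(intensity + 16), of 6 dim members, chosen after their values were seen, against the percentage of probe sets brighter than 100 (horizontal axis) on 15 arrays coloured by group. On the horizontal axis CHOW replicate 1 and 2w-WD replicate 1, at 24.7% and 25.7%, lie among the 14w-WD arrays. For Ndufs5 the levels of both lie outside the range of the 14w-WD arrays.

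Other isoforms known from restricted tissues gave low signals. Cox4i2 read between 5.67 and 6.91, Cox7b2 between 6.10 and 7.15, and Cox8c between 6.16 and 7.88, and Cox6b2 stayed below the filter on average. Cox6b1, the common partner of Cox6b2, read between 13.05 and 13.74. Cox7b was not analysed here.

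Genes around the respiratory chain were taken from lists of the pathway. Of complex II, 4 of 4 genes entered the test, and 0 were called in any diet comparison or slope. Of 31 tested assembly factors, 1 was called in any diet comparison: Lrpprc, which stabilises mitochondrial mRNAs, was higher in 14w-WD than in 2w-WD by 0.98 (SE 0.28, adjusted p = 0.0368). Of 11 tested factors of mitochondrial biogenesis, 2 were called, both in the same comparison: Gabpa, the ETS subunit of GABP, by 0.92 (SE 0.27, adjusted p = 0.0379) and Pprc1, a coactivator related to PGC-1, by 1.76 (SE 0.51, adjusted p = 0.0382). Of 6 tested carriers and pores, the outer membrane channel Vdac2 was higher by 2.15 (SE 0.49, adjusted p = 0.0185). Against 2w-WD, 10.1% of all genes were called higher in 14w-WD. None of 11 tested genes of the citric acid cycle was called, and none of cytochrome c and its partners (3 tested). On the heart muscle mean, Sdha of complex II had a slope of 0.28 (SE 0.07, adjusted p = 0.0606), citrate synthase, Cs, 0.25 (SE 0.06, adjusted p = 0.0794), the heart ADP/ATP carrier Slc25a4 0.33 (SE 0.08, adjusted p = 0.0727) and the PGC-1alpha gene Ppargc1a 0.76 (SE 0.21, adjusted p = 0.163), and no gene of these lists passed.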

How the data were processed

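Foam cells of 3 diet groups were measured on Affymetrix whole-genome mouse arrays, 5 per group. Per the labels' protocols, RNA was extracted with the PicoPure kit, amplified with the RiboAmp HS kit and labelled with biotin. The authors deposited 1 linear intensity for each of 45037 probe sets and array, and their summarisation and normalization are not given in the sources used here. Probe sets were named through the platform annotation: 34945 had 1 gene, 932 several and 9160 none, and 9 probe sets that pair a member with other genes were left out. All 76 members matched the GRCm38.p6 gene table by gene number.

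Values were turned into log2(intensity + 16) without further normalization, so differences of dim genes are understated. The test was limma 3.58.1 in R 4.3.3 (lmFit, eBayes with an intensity trend) on 11925 genes and all 15 arrays. Benjamini-Hochberg adjustment ran over all genes tested, with a threshold of 0.05. The limma steps were first run on simulated data with independent noise, which does not show how they perform on these arrays. All tests were two-sided. For the slopes the mean of the 16 heart muscle markers of each array was added to the model. Isoform pairs were tested by exact permutation (scipy 1.17.1). The members and lists were chosen with earlier results of these data known. The named genes were the 6 genes of the isoform pairs, the members called or of smallest p in each direction and comparison (at most 8 called, filled up to 4), the 6 of smallest p for each direction of the slope, the brightest and dimmest member of each complex, other tissue isoforms, and up to 3 genes per pathway list.

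No 2 arrays held identical values, and their correlations ran from 0.862 to 0.972. The number of arrays limits the precision. The correlations of deviations between same-numbered arrays were mixed, from -0.166 to 0.477. All 3 pairs were positive for replicates 1, 2 and 5, with the highest value for replicate 1. Some pairs of replicates 3 and 4 were below 0. The labels give the replicate numbers no meaning, so these numbers were not taken to pair arrays. Alternatives were the pseudocount, normalization, filter, choice of probe set, array weights, replicate block, covariates and leaving out each array.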

Additional observations from a re-analysis of the deposited data

Results flagged for a closer look

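Groups of 5 arrays were checked in 105 combinations, each with a named member, the heart muscle marker mean or the difference of an isoform pair. In 10 of them, all of members, 1 array had a gap to its nearest neighbour above 0.71 of the group's range, Dixon's critical value. Chance flags about 1 in 20 such groups. Of the 10, 3 lay on 14w-WD replicate 2, where Atp5d (13.78), Cox5b (14.10) and Uqcr11 (12.95) were highest in their group. On CHOW replicate 4, the array of lowest heart muscle mean, Cox6a2 (8.92) and Ndufa8 (11.83) were lowest. On CHOW replicate 1, Ndufs4 (8.60) and Uqcrh (8.99) were highest, and on 2w-WD replicate 1, Ndufs5 (7.34) and Uqcrh (9.37) were highest. These 2 arrays had the highest shares of probe sets brighter than 100 in their groups. On CHOW replicate 5, Cox8a (11.76) was lowest. The part of the array properties in these values was not tested.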

How the results depend on the processing

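The counts of called members depended on several choices. With limma array weights 6 members were called higher in 14w-WD than in CHOW (14.1% of all genes) and 9 in 14w-WD than in 2w-WD (25.9% of all genes). For that comparison 2 members were called higher with the mean of all probe sets (13.5% of all genes), 4 with the heart muscle mean as covariate (10.6%), and 1 lower with quantile normalization (2.51%) and with only the 2 groups fitted (1.25%). Leaving out 1 array gave 0 to 1 members higher in 14w-WD than in CHOW (1 without 2w-WD replicate 1), 0 to 9 higher in 14w-WD than in 2w-WD (9 without 2w-WD replicate 1) and 0 to 1 lower. Whether replicate numbers pair the arrays is not settled by the labels; a fit with the replicate block called 2 members higher (Ndufa6 and Ndufs5, 15.7% of all genes) and 1 lower (Ndufs8, 2.09%) in 14w-WD than in 2w-WD. The count of positive slopes on the heart muscle mean was 17 with array weights (1.21% of all genes), 3 with the replicate block (0.528%), 3 without the 2 farthest arrays (0.285%), 5 with the ventricular (0.57%) and 0 with the atrial mean (0.0335%; both chosen after seeing the data), and 5 to 21 leaving out 1 array. The 5 members called on the ventricular mean did not include Cox6a2, Cox7a1 or Cox8b. With the replicate block no isoform pair test between diets passed (smallest p 0.0625, the smallest possible with 5 pairs). On the atrial mean the slopes of the pair differences were 0.28, 0.24 and 0.18.

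Leaving out 1 array moved the pair differences of 14w-WD against CHOW from -0.37 to 0.74 (Cox6a2 minus Cox6a1), -0.57 to 0.75 (Cox7a1 minus Cox7a2) and -0.47 to 1.03 (Cox8b minus Cox8a), each lowest without CHOW replicate 4. In that comparison Cox6a2 ran from -0.26 to 0.80, Cox7a1 from -0.44 to 1.06, Cox8b from -0.40 to 0.98, Cox6a1 from -0.0077 to 0.18 and Cox8a from -0.049 to 0.10. Cox6a1 ran from -0.045 to 0.15 for 2w-WD against CHOW and from -0.0065 to 0.088 for 14w-WD against 2w-WD. Slopes ran from -0.17 to 0.0037 for Cox7c, -0.097 to 0.089 for Uqcrb, -0.048 to 0.025 for Cox6a1 and -0.063 to 0.014 for Cox8a.

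None of the following sign changes concerned a called value but Cox5b, and their cause was not tested. For 2w-WD against CHOW Cox6a1 turned to -0.080 with all probe sets and -0.098 with array weights. For 14w-WD against CHOW the heart covariate turned Cox7a1 to -0.17 and Cox8b to -0.14, the share of bright probe sets as covariate turned Cox7b2 to 0.056, Ndufb4 to 0.044 and Cox8a to -0.12, and Cox8a was -0.0067 with quantile normalization and -0.21 with all probe sets. For 14w-WD against 2w-WD Ndufs8 turned to 0.20 and Cox8a to -0.066 with all probe sets, Cox8a to -0.00054 with the bright share, and Cox6a1 to -0.055 with quantile normalization and -0.036 with median centring. Slopes turned to 0.056 (Cox7c) without the 2 farthest arrays, to 0.016 (Cox7c) and 0.014 (Uqcrb) on the ventricular mean, to 0.068 (Cox8c), 0.0031 (Cox6a1), -0.0026 (Cox5b), -0.029 (Cox7a2) and 0.069 (Cox8a) on the atrial mean, to 0.23 (Uqcrb) and 0.066 (Cox6a1) with all probe sets, to 0.014 (Uqcrb) with array weights, to 1.35e-05 (Cox8c) and 0.040 (Uqcrb) with the replicate block, and to 0.00049 (Cox8a) with the macrophage mean added.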
